A study of Homo sapiens with 9 samples.

Results

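The hepatokines described here are 6 genes whose protein products the liver secretes, and which circulate as hormones of metabolic stress or of feeding: FGF21, GDF15, INHBE, FGF19, ANGPTL4 and LEAP2. Each was taken by its symbol from the deposited expression table, which held all 6 members among 22587 genes. HepG2, a human liver cancer cell line grown in high-glucose DMEM with fetal bovine serum, was kept in medium with glutamine (Gln added) or was moved to Gln-free DMEM for 12 h or 24 h (Gln deprived), with 3 RNA-seq libraries in each of the 3 groups. All cells were of a single tumour line and no group carried a genetic change. The labels place a GlutaMAX supplement, a stable Gln dipeptide, in the Gln added group, whereas the treatment description places it in the deprivation medium, so what the deprived cells were given is uncertain. Neither the labels nor the methods say that the 3 libraries of a group came from separate cultures, so the p-values measure the spread between these libraries, which may be technical.

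GDF15 is a distant TGF-β family member that lowers food intake through GFRAL, a receptor of the hindbrain. INHBE encodes the inhibin βE chain, which forms activin E, a hepatokine that restrains lipolysis in adipose tissue. FGF21 and FGF19 are endocrine fibroblast growth factors that need β-klotho (KLB) as a co-receptor. FGF21 is released by the fasted or stressed liver, and FGF19 is mainly an intestinal bile acid signal. ANGPTL4 blocks lipoprotein lipase and is a classical target of the PPAR receptors, and LEAP2 is a peptide that opposes ghrelin at the receptor GHSR. When amino acids run short, the kinase GCN2 raises translation of the transcription factor ATF4, and FGF21, GDF15 and INHBE are among the genes known to be under its control.

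The libraries held 29621270 to 36261546 fragments on genes. The line expressed the hepatocyte programme in every group: 11 of 11 hepatocyte markers were above 1 FPKM, ALB the highest at 3831 ± 69.9 FPKM with Gln added (SD, n = 3). FPKM are fragments divided by transcript length and library size, so that levels of different genes can be set side by side. The summed hepatocyte markers lay between 8867 and 9012 FPKM with Gln added, between 7749 and 7841 FPKM at 12 h and between 7449 and 7802 FPKM at 24 h, and the part of this lower sum in the results on the hepatokines was not tested. Of the markers of other cells, 0 of 3 endothelial genes (PECAM1, VWF, CDH5) and 0 of 4 fibroblast or stellate genes (COL1A1, COL1A2, DCN, PDGFRB) were above 1 FPKM in any group mean. CD68, a lysosomal protein of macrophages that tumour lines also make, averaged 36.1, 29.6 and 22.9 FPKM in the 3 groups. Of the biliary markers KRT7 was at or near 0 and SOX9 averaged 48.7, 79.7 and 82.4 FPKM in the 3 groups.

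The members spanned more than 3 orders of magnitude in level, and the gene that heads the group by reputation was the lowest. With Gln added GDF15 was the highest at 133 ± 1.95 FPKM (SD, n = 3), 380th of the 22587 genes. LEAP2 followed at 15.6 ± 0.68 FPKM and INHBE at 13.0 ± 0.209 FPKM. ANGPTL4 stood at 0.915 ± 0.104 FPKM, FGF19 at 0.0723 ± 0.0173 FPKM and FGF21 at 0.0140 ± 0.0121 FPKM. No library of a gene in this order overlapped with those of its neighbour while Gln was present. After 12 h INHBE (55.0 ± 0.981 FPKM) stood above LEAP2 (7.43 ± 0.561 FPKM), and GDF15 had become the 94th gene of the table. At 24 h GDF15 ranked 91st and INHBE 1159th, from 4221st with Gln added. In the 24 h libraries FGF19 and FGF21 overlapped, so their order was not resolved there.

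**Figure D1:**
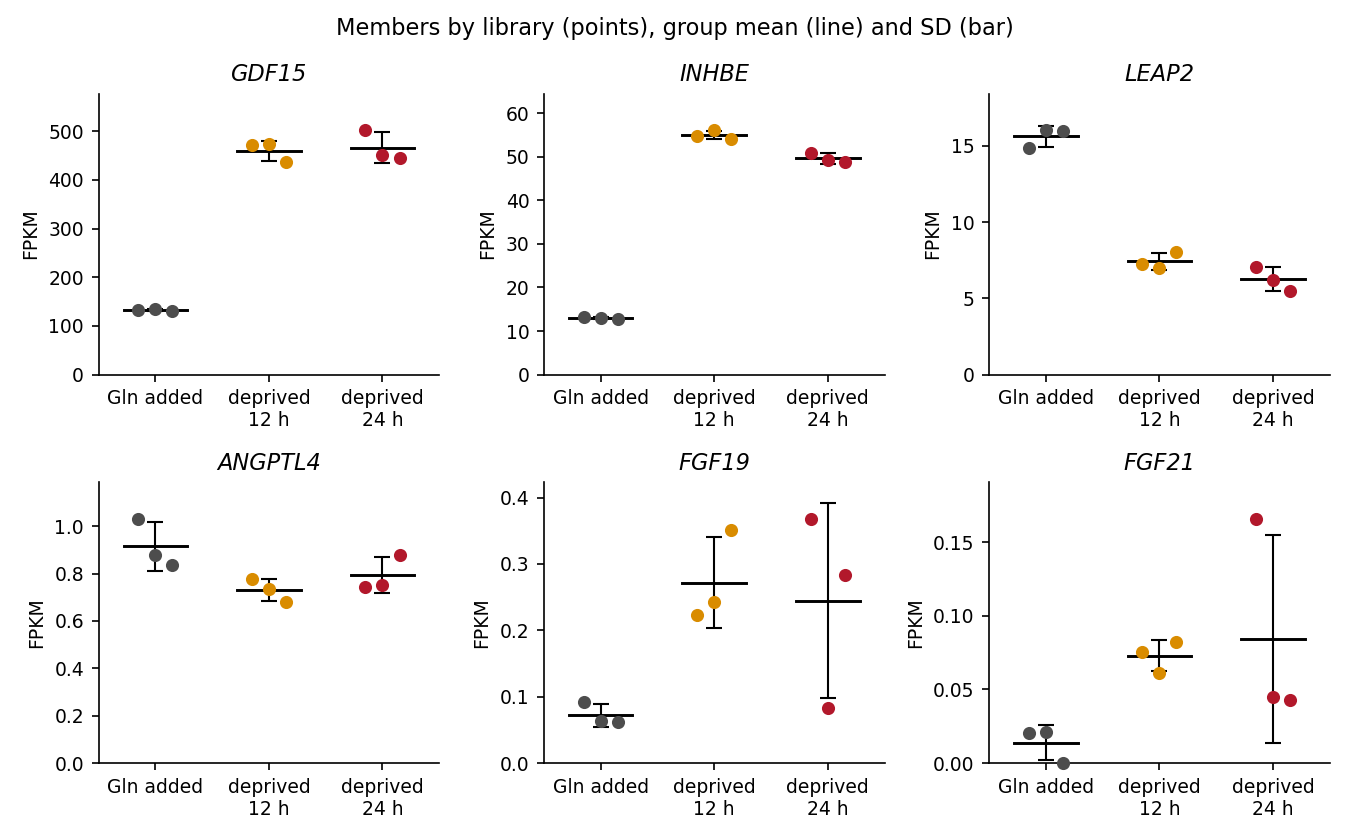
FPKM of the 6 members in each of the 9 libraries (points), with the group mean (line) and SD (bar); each panel has its own axis from 0. GDF15 and INHBE rose from the Gln added libraries to both deprived groups, LEAP2 fell, ANGPTL4 moved little, and FGF19 and FGF21 stayed below 0.4 FPKM throughout.

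For the test, limma was run on log2(FPKM + 0.1) for genes that averaged 0.5 FPKM or more across all 9 libraries. Fold changes are given on that scale, with Benjamini-Hochberg adjustment over the 11880 genes tested. Of the 6 members 4 passed this filter, and FGF19 and FGF21 did not. At 12 h against Gln added, 2 of the 4 were called higher at an adjusted p under 0.05 (GDF15 and INHBE), where 29.1% of all tested genes were called higher. LEAP2 was the 1 member called lower, where 31% of genes were. At 24 h the calls were the same, with 33% of all genes higher and 31.7% lower. Calls of either direction were thus common in these libraries. The median log2 fold change of all tested genes was -0.02 at 12 h, with quartiles of -0.27 and 0.24. Both deprived groups were compared with the same Gln added libraries, so the results of the 2 times are not independent.

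GDF15 rose 3.45-fold at 12 h and 3.50-fold at 24 h. Its FPKM were 134, 135 and 131 with Gln added, 471, 473 and 436 after 12 h, and 502, 451 and 446 after 24 h. All 6 deprived libraries stood far above the 3 controls, and the 2 deprived groups overlapped with each other. The log2 fold change was 1.79 (SE 0.0497, limma adjusted p = 8.57e-10) at 12 h and 1.80 (adjusted p = 6.10e-10) at 24 h. The exact permutation test of the 3 libraries against 3 gave p = 0.1 at each time, the smallest that this design allows. Of all tested genes, 41 rose more at 12 h and 60 rose more at 24 h. The depth behind these values was 24333 fragments over the Gln added group and 80449 and 83394 over the deprived groups. Between 12 h and 24 h GDF15 differed by 0.02 on the log2 scale (95% interval -0.09 to 0.13, limma adjusted p = 0.828). GDF15 lies on chromosome 19 (GRCh38, 18374731 to 18389176, plus strand), and no annotated exon of another gene overlaps its exons.

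INHBE rose 4.24-fold at 12 h and 3.82-fold at 24 h, the largest rise of the 4 tested members. Its FPKM were 13.2, 13.0 and 12.7 with Gln added, 54.8, 56.1 and 54.2 after 12 h, and 50.9, 49.2 and 48.7 after 24 h. The 3 groups did not overlap at all, and the coefficient of variation within a group was at most 2.37%. Among all tested genes 67.2% and 69.9% had no overlap at 12 h and 24 h against Gln added. Between the 2 times 34.4% had none. The log2 fold change was 2.08 (SE 0.0345, limma adjusted p = 3.89e-11) at 12 h and 1.93 (adjusted p = 6.76e-11) at 24 h. At these times 23 and 47 tested genes rose more. INHBE was then slightly lower at 24 h than at 12 h, with a ratio of 0.902 and a log2 difference of -0.15 (95% interval -0.23 to -0.07, limma adjusted p = 0.0127). That small decline was no longer called without replicate 2 of 12 h (-0.14, adjusted p = 0.0503) or without replicate 3 of 24 h (-0.14, adjusted p = 0.0513). INHBE lies on chromosome 12 (GRCh38, 57452323 to 57459280, plus strand). An antisense transcript covers 16.4% of its exon bases. As the labels and the methods name different library kits, it is not known whether reads of the 2 strands were told apart.

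INHBC, the other inhibin β gene that could be tested, was not called higher. It encodes the βC chain of the same liver-enriched pair and ends 260 bases before INHBE starts on the same strand. INHBC averaged 4.73 ± 0.409, 4.49 ± 0.252 and 3.50 ± 0.286 FPKM in the 3 groups. Its log2 fold change was -0.07 at 12 h (limma adjusted p = 0.479) and -0.42 at 24 h (adjusted p = 0.000909). INHBB stayed between 0.288 and 0.535 FPKM in the means, and INHBA, the βA chain of activin A, averaged 0.00238 FPKM at 24 h and was at 0 in the other groups. INHBE thus made up 72.1% ± 1.89 of the summed inhibin β FPKM with Gln added (SD, n = 3), and its share was 92.0% ± 0.408 after 12 h and 92.5% ± 0.641 after 24 h. GLI1, the gene on the other side of INHBE, was below 0.03 FPKM in all group means and was not tested.

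LEAP2 was the member that fell. Its FPKM were 14.8, 16.0 and 16.0 with Gln added, 7.25, 6.98 and 8.06 after 12 h, and 7.07, 6.22 and 5.49 after 24 h. The deprived libraries all lay below the controls, and the highest 24 h library lay just above the lowest 12 h library. The log2 fold change was -1.06 (SE 0.0864, limma adjusted p = 2.23e-06) at 12 h and -1.31 (adjusted p = 3.07e-07) at 24 h. Of the tested genes 195 fell more at 12 h and 139 fell more at 24 h. The difference between 24 h and 12 h was -0.25 on the log2 scale (95% interval -0.44 to -0.06) and missed the threshold (limma adjusted p = 0.0682). It passed without replicate 1 of 24 h (-0.34, adjusted p = 0.0117) and with median-ratio scaling of the libraries (-0.27, adjusted p = 0.0487). LEAP2 is on chromosome 5 (GRCh38, 132873444 to 132875046, plus strand). Its transcript is short, so that the values rest on 1428, 653 and 561 fragments in the 3 groups.

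ANGPTL4 was low and gave no call. Its FPKM were 1.03, 0.878 and 0.834 with Gln added, 0.777, 0.734 and 0.682 after 12 h, and 0.743, 0.754 and 0.880 after 24 h. The 12 h libraries all lay below the controls, whereas the 24 h libraries overlapped with them. The log2 fold change was -0.29 at 12 h (SE 0.131, 95% interval -0.57 to 0.00394, limma adjusted p = 0.081) and -0.18 at 24 h (95% interval -0.47 to 0.11, adjusted p = 0.239). At 190, 145 and 161 fragments per group the counts limit the precision, and the intervals leave room for a fall as well as for little change. In eBayes without a trend, the spread of each gene is drawn toward 1 value shared by genes of every level. In that fit the 12 h value was called lower (limma adjusted p = 0.0221). ANGPTL4 is on chromosome 19 (GRCh38, 8363289 to 8374370, plus strand).

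FGF21 and FGF19 were close to the limit of detection in every library of this line. FGF21 (chromosome 19, GRCh38, 48755524 to 48758333, plus strand) had 1, 1 and 0 fragments with Gln added, 3, 3 and 4 after 12 h and 8, 2 and 2 after 24 h. These are FPKM of 0.0208, 0.0212 and 0, then 0.0752, 0.0614 and 0.0824, then 0.166, 0.0446 and 0.0426. Deprived libraries were above the controls without overlap, but 8 of the 12 fragments at 24 h came from replicate 1. Summed over a group and scaled to depth, FGF21 was 5.21 times as high at 12 h (95% exact interval of the ratio 1.11 to 48.9) and 6.13 times as high at 24 h (1.36 to 56.4). These intervals cover counting error only and take the recovered fragments as exact. Without the filter on low genes limma did not call it (adjusted p = 0.0769 at 12 h and 0.0596 at 24 h).

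FGF19 (chromosome 11, GRCh38, 69698238 to 69704022, minus strand) had 6, 4 and 4 fragments with Gln added, 12, 16 and 23 after 12 h, and 24, 5 and 18 after 24 h. Its FPKM were 0.0923, 0.0629 and 0.0618, then 0.222, 0.242 and 0.351, then 0.368, 0.0826 and 0.283. The 12 h libraries were all above the controls, while replicate 2 of 24 h lay among them. The ratio of summed fragments was 3.80 at 12 h (95% exact interval 2.07 to 7.43) and 3.43 at 24 h (1.86 to 6.75). Without the filter limma called FGF19 higher at 12 h (log2 difference 1.10, adjusted p = 0.0317) and not at 24 h (0.90, adjusted p = 0.0641). At 12 h 67.2% of all tested genes had no overlap between the groups, so separation alone was common among them. FGF19 and FGF21 did not pass that filter, and the share among genes as low as these was not computed.

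The gene beside FGF21 rose far more in absolute terms. FUT1, a fucosyltransferase that makes the H blood group antigen, starts on the opposite strand, and the 2 annotated genes are separated by 133 bases. FUT1 stood at 0.0596, 0.0813 and 0.0798 FPKM with Gln added, at 1.03, 1.07 and 0.716 FPKM after 12 h and at 0.786, 0.939 and 0.807 FPKM after 24 h. The deprived libraries were all well above the controls. From 33 fragments with Gln added it went to 402 at 12 h and 370 at 24 h, ratios of 12.7 (95% exact interval 8.89 to 18.7) and 11.5 (8.01 to 16.9) at equal depth. The log2 fold change was 2.57 (limma adjusted p = 1.16e-06) and 2.44 (adjusted p = 1.15e-06). FUT1 passed the filter only through the deprived libraries, so that a gene at its Gln added level could be tested only if it rose. The fold values also depend on the scale, being 0.85 and 0.78 with 1 FPKM added and 3.60 and 3.47 with voom on recovered fragments. No exon of FUT1 overlaps an exon of FGF21 in the annotation. BCAT2, which starts the breakdown of branched-chain amino acids and is the next gene on the other side, fell by 0.85 and by 1.02 on the log2 scale (adjusted p = 0.00166 and 0.000405).

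The stretch between the 2 genes is shown because it holds the only match to the C/EBP-ATF response element among the promoters of the 4 members that were searched, the composite site through which ATF4 and its partners bind. The bases between the annotated starts of FUT1 and FGF21 (GRCh38, chr19:48755391-48755523, plus strand, from RefSeq with FGF21 to the right) read as follows, with the match in capitals.
FGF21 upstream: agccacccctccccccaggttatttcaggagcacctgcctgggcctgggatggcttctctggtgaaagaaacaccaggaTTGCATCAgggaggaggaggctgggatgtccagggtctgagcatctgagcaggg
The match is the reverse complement of TGATGNAA, and its first base lies 54 bases before the FGF21 start. On the other side 79 bases separate it from the annotated start of FUT1, which lies on the minus strand. A RefSeq promoter window of FUT1 (chr19:48755309-48755608) holds the match, and another (chr19:48752592-48752891) does not.

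Promoters running from 250 bases before to 50 bases after the start were at hand for 4 members (FGF21, GDF15, LEAP2 and ANGPTL4), and those of INHBE and FGF19 were not used here. Letters were searched on both strands. TGATGNAA was present in 1 of the 4, that of FGF21, and in 2.34% of all 16433 promoters of the same length. TGANTCA, the AP-1 site, was in none of the 4 and in 5.97% of all promoters, and TGACGTCA, the cyclic AMP response element, was in none of the 4 and in 2.63%. Neither presence nor absence of these letters says whether a factor was bound. The RefSeq starts that set the windows of GDF15, LEAP2 and ANGPTL4 lie inside the GENCODE intervals given above, and 241 of the 250 bases before the start in GDF15 and 224 in LEAP2 fall within GENCODE exons. Starts further upstream were not searched. GDF15, which rose, held none of these 3 motifs in that window, and FGF21, which held one, had 24 fragments in all 9 libraries.

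**Figure D2:**
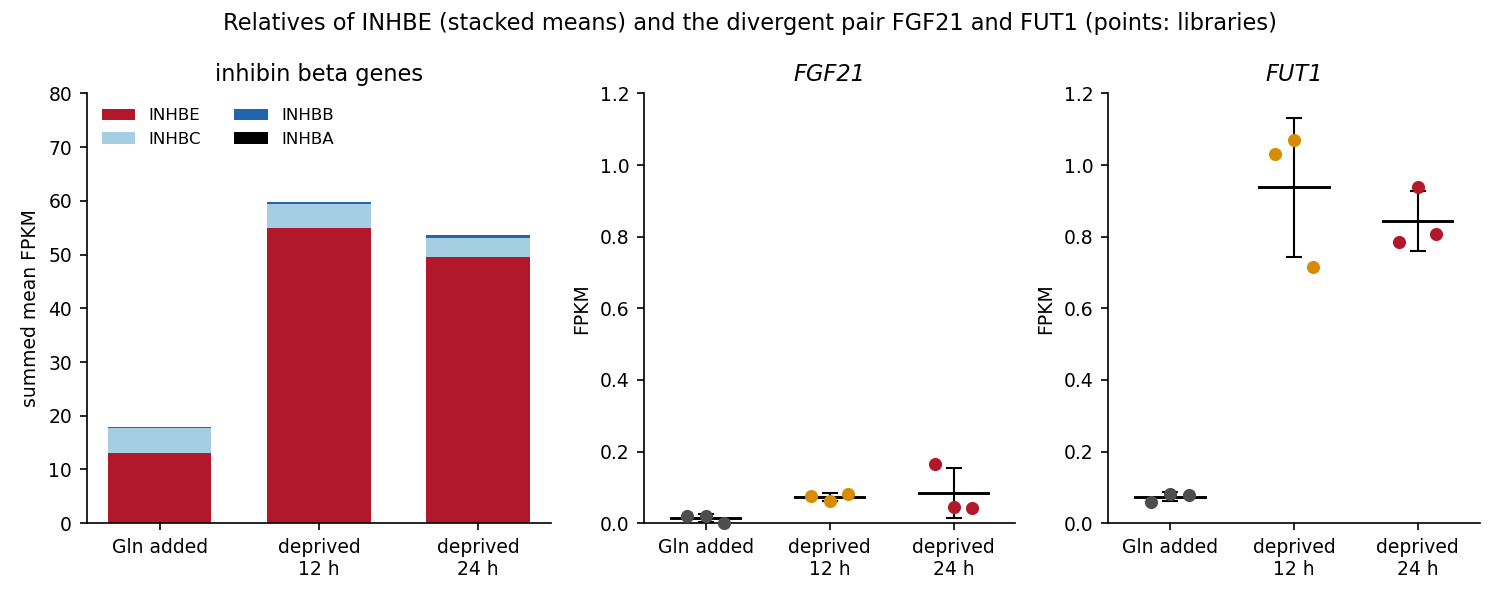
Left, mean FPKM of the 4 inhibin β genes stacked by group; middle and right, FPKM of FGF21 and of its divergent neighbour FUT1 in each library (points) with mean (line) and SD (bar), on the same axis. INHBE makes up 72.1% of the inhibin β sum with Gln added and over 90% in the deprived groups, and FUT1 rises to 0.939 FPKM at 12 h while FGF21 stays at or below 0.166 FPKM.

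Placed among all tested genes, INHBE and GDF15 lay in the upper tail at both times and LEAP2 in the lower tail, while ANGPTL4 was within the bulk. Between 12 h and 24 h the members moved little. In limma 0 of the 4 tested members were higher at 24 h, also at an unadjusted p under 0.05, where 9.57% of all tested genes were called higher. INHBE was the 1 member called lower, where 10.5% of genes were, and LEAP2 had an unadjusted p of 0.0158 in the same direction. For GDF15, INHBE and LEAP2 most of the difference from Gln added was therefore present at 12 h, the first time measured. The Gln added group has no stated time, so neither deprived group has a control of its own time.

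**Figure D3:**
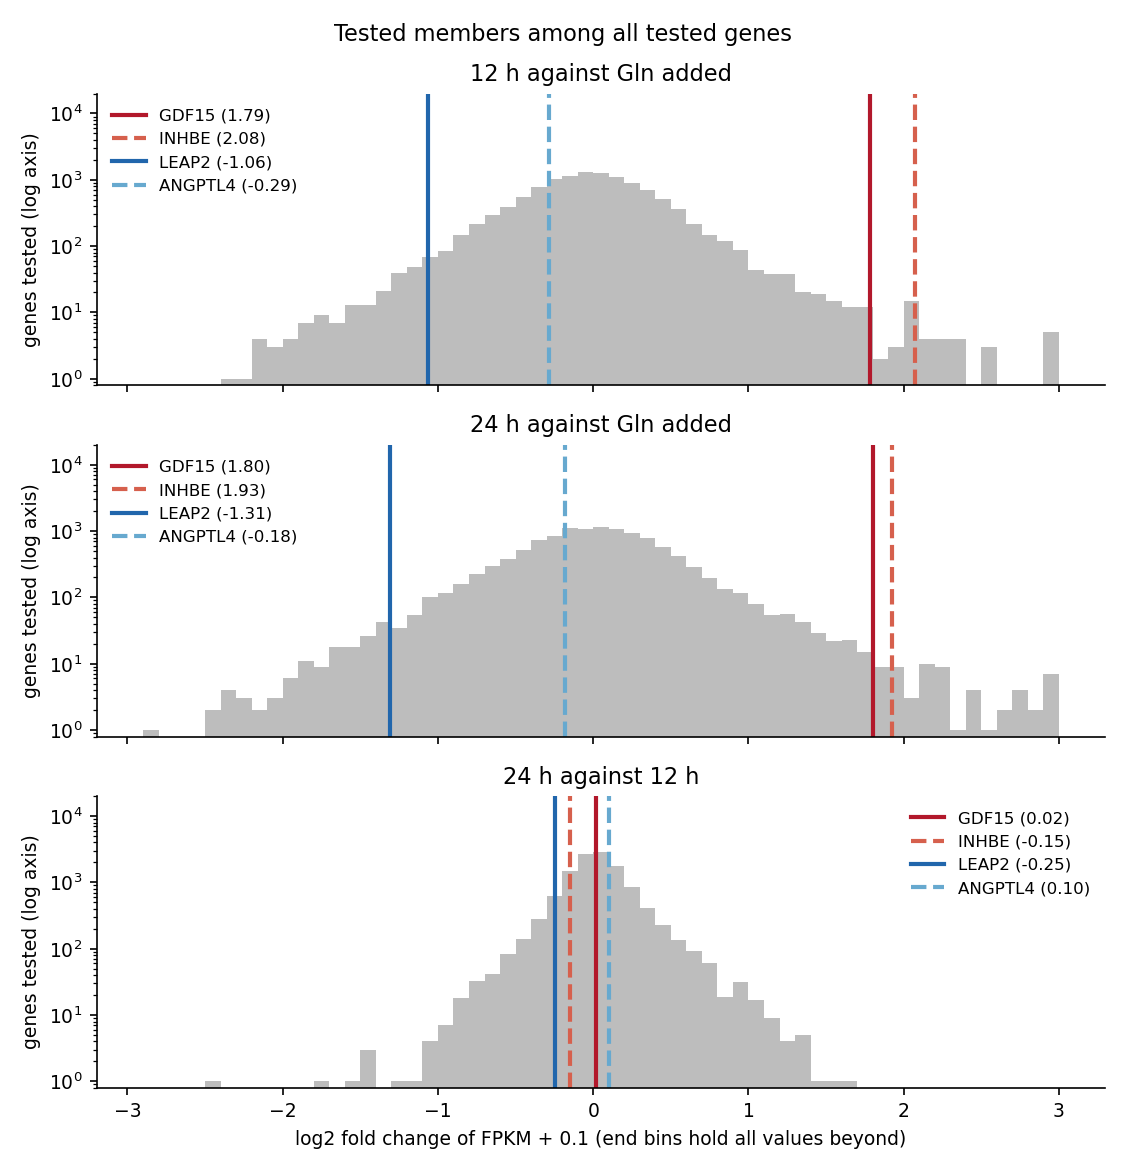
Distribution of log2 fold changes of FPKM + 0.1 over the 11880 tested genes in each comparison (grey bars, number of genes on a log axis), with vertical lines for the 4 tested members. INHBE (2.08 and 1.93) and GDF15 (1.79 and 1.80) stand in the upper tail against Gln added, LEAP2 (-1.06 and -1.31) in the lower, and the lines gather near 0 between 24 h and 12 h.

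The genes whose profiles were most like each member were found by the root mean square distance between centred log2 profiles over the 9 libraries, a description in which all genes share the same libraries. For INHBE they were TRIB3, a pseudokinase that is itself an ATF4 target (distance 0.0514), the glycine transporter SLC6A9 (0.0962) and the GTP-binding protein GTPBP2 (0.0971). TRIB3 averaged 64.3, 262 and 251 FPKM in the 3 groups. For GDF15 they were the angiogenic factor VEGFA (0.0694), the EGFR inhibitor ERRFI1 (0.0724) and BMF, a pro-apoptotic BH3-only protein (0.0749). VEGFA averaged 23.3, 76.0 and 76.6 FPKM. GDF15 and INHBE were at a distance of 0.125 from each other. The genes nearest to LEAP2 were the fatty acid desaturase FADS1 (0.0862), CMBL, a hydrolase of the liver (0.0866), and the mRNA export factor ALYREF (0.0871), and all 3 fell by 1.04 to 1.37 on the log2 scale. Those nearest to ANGPTL4 were HGFAC, the activator of hepatocyte growth factor (0.0607), ANO9 (0.0688) and TCTN1 (0.0706), whose log2 fold changes lay between -0.32 and -0.22.

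**Figure D4:**
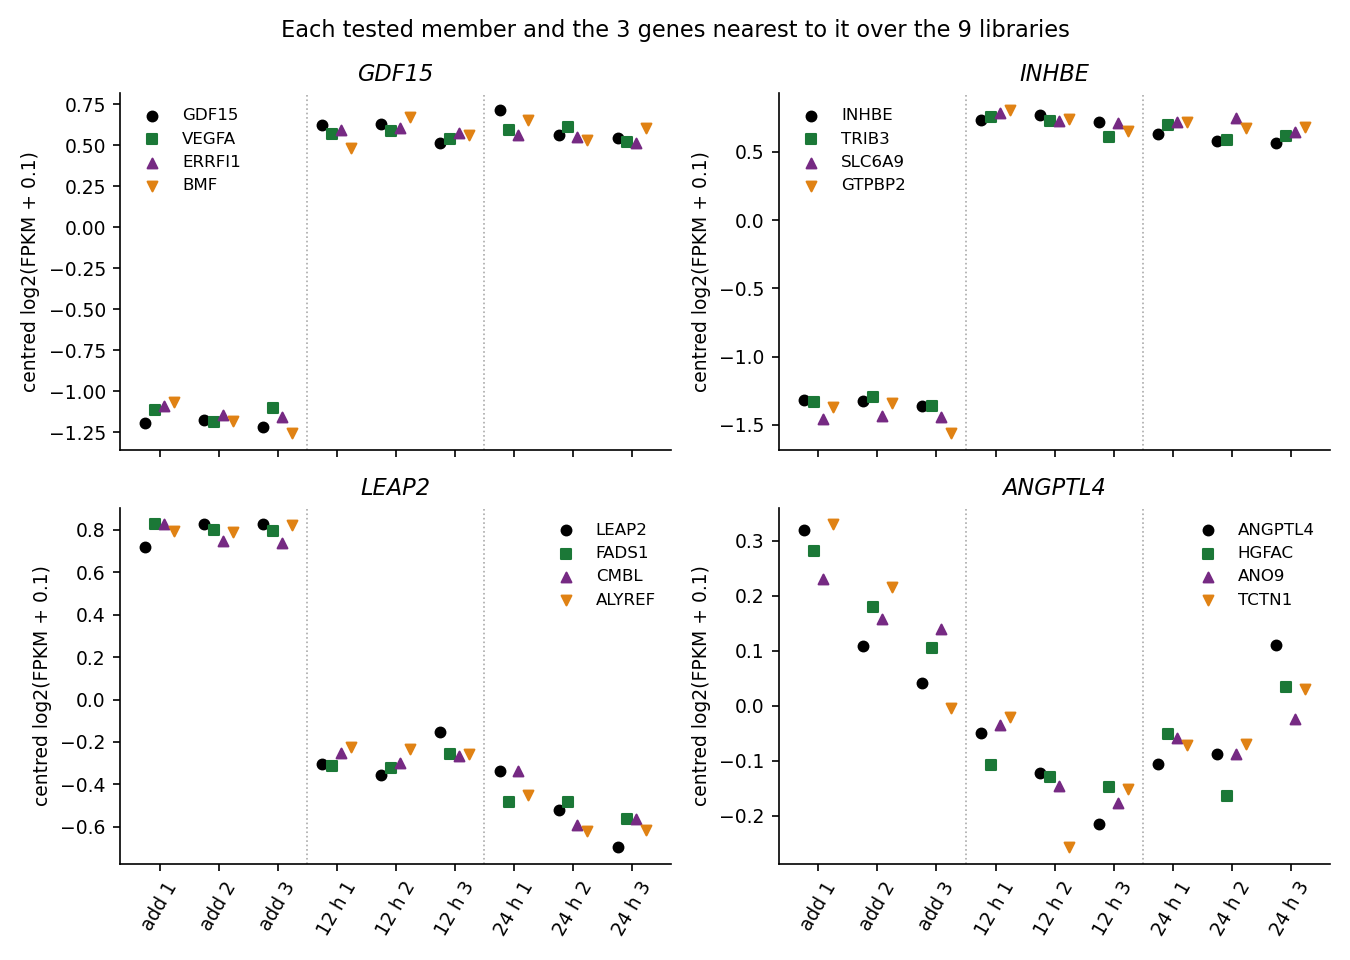
Centred log2(FPKM + 0.1) of each tested member (black circles) and of the 3 genes nearest to it, in the 9 libraries (add, Gln added; 12 h and 24 h, deprived). GDF15, INHBE and LEAP2 separate the controls from the deprived libraries, whereas the values of ANGPTL4 span a far smaller range.

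Of the receptors, co-receptors and binding partners of the members, 21 genes were tested. At 12 h 9 were higher and 3 lower, with a median log2 fold change of 0.09, and at 24 h 10 were higher and 5 lower, with a median of 0.06, against all-gene medians of -0.02 and 0.01. Over all tested genes 29.1% were higher and 31% lower at 12 h, and 33% and 31.7% at 24 h. The counts of every list below stand beside these shares. KLB, the co-receptor that FGF21 and FGF19 share, fell from 26.0 ± 0.466 to 13.1 ± 1.03 and 11.6 ± 0.162 FPKM (-0.99 and -1.16, limma adjusted p = 1.04e-07 and 2.04e-08). FGFR4, the main liver receptor for FGF19, was the most abundant of the list at 129 FPKM with Gln added. It gave -0.09 at 12 h (adjusted p = 0.132) and fell by 0.19 at 24 h (adjusted p = 0.0048). Follistatin (FST), which binds and neutralises activins, rose from 20.9 ± 0.608 to 63.1 ± 2.75 and 68.5 ± 1.25 FPKM (1.59 and 1.71). TGFBR2 rose by 0.74 and 1.03, and ANGPTL8, which modulates the inhibition of lipoprotein lipase, rose from 28.7 to 56.8 and 70.3 FPKM. FURIN, a protease that matures ligands of the TGF-β family, was higher at 89.1 and 82.5 FPKM against 48.9, and the heparan sulfate proteoglycan SDC1 was lower at 70.5 and 63.3 FPKM against 102. GFRAL and GHSR, the receptors of GDF15 and LEAP2, are not among the genes of the table used here.

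The relatives of the members in their ligand families were mostly silent, as 10 of the 40 in the table reached the filter. Of these 3 were higher and 3 lower at 12 h, and 3 were higher and 4 lower at 24 h, with medians of 0.03 and 0.01. The 12 h counts were near the shares of all tested genes (29.1% higher and 31% lower). TGFB1, the founding member of the family that holds GDF15 and INHBE, rose from 14.8 ± 0.663 to 26.9 ± 2.18 and 38.8 ± 2.49 FPKM (0.85 and 1.38). HAMP, which encodes the iron hormone hepcidin, fell from 58.1 ± 2.63 to 33.9 ± 1.20 and 18.7 ± 1.72 FPKM. BMP4 fell by 0.20 and 0.33, and FGF11, an intracellular member of the FGF family, fell by 0.46 and 0.74.

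Other secreted liver factors went both ways. Of 27 tested, 13 were higher and 11 lower at 12 h, and 9 were higher and 9 lower at 24 h, with medians of 0.13 and 0.02. IGFBP1, which sequesters insulin-like growth factors, rose more than any member, from 95.6 ± 2.19 to 829 ± 21.1 and 1147 ± 42.9 FPKM (3.12 and 3.58, limma adjusted p = 4.95e-12 and 1.15e-12). ADM2, an adrenomedullin-like peptide, rose from 0.965 to 4.40 and 5.65 FPKM. IGFBP3, which also passed the filter only through the deprived libraries, stood at 0.0965 FPKM with Gln added and 1.28 FPKM at 24 h. Erythropoietin (EPO) fell from 5.26 ± 0.483 to 1.72 ± 0.192 and 0.878 ± 0.158 FPKM. Of the abundant plasma proteins, AHSG rose by 0.13 and 0.30, and APOH fell by 0.22 and 0.31.

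Of the transcription factors reported to act upstream of the members, all 35 passed the filter. At 12 h 25 were higher and 1 lower, and at 24 h 27 were higher and 4 lower, with a median of 0.44 at each time. ATF4 mRNA rose from 41.9 ± 0.751 to 77.4 ± 2.01 and 75.5 ± 1.06 FPKM (0.88 and 0.85, limma adjusted p = 7.51e-09 and 5.92e-09). Its partner and target DDIT3 (CHOP) rose by 1.72 and 1.58, and ATF3 rose by 1.61 and 1.54. EGR1, an immediate early factor, rose the most of the list, from 0.435 ± 0.0311 to 13.0 ± 0.5 and 19.8 ± 1.86 FPKM, and FOS rose from 0.224 to 1.50 and 1.57 FPKM. XBP1 and NFE2L2 rose by 0.32 and 0.51 at 12 h. PPARA, the fasting receptor upstream of FGF21 and ANGPTL4, gave 0.02 at each time (adjusted p = 0.69 and 0.738).

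The other ATF4 targets rose together. Of 45 tested, 44 were higher and 0 lower at 12 h in limma, also at an unadjusted p under 0.05, and 44 were higher and 1 (ATF5, itself a transcription factor) was lower at 24 h, with medians of 1.23 and 1.26. The list shares ATF3, ATF5, DDIT3, CEBPB and CEBPG with the transcription factors. GDF15 and INHBE were above these medians, and TRIB3 rose by 2.02 and 1.96. SLC6A9 rose by 2.18 and 2.15, and PPP1R15A (GADD34), which restarts translation, rose by 2.08 and 2.15. PSAT1 of serine synthesis rose from 194 to 372 and 363 FPKM, and the amino acid transporter SLC38A2 from 107 to 184 FPKM at 12 h (0.78 and 0.90 on the log2 scale). ASNS, asparagine synthetase, was low, rising from 0.128 ± 0.00362 to 1.81 ± 0.175 and 1.43 ± 0.168 FPKM. ASNS, like EGR1 and FOS, was under 0.5 FPKM with Gln added and passed the filter through the deprived libraries. So did some unnamed genes of this list, of the transcription factors and of the other secreted factors. Genes at such levels could be tested only if they rose, so the filter itself added to the higher counts. FGF21, also a known ATF4 target, stayed below 0.2 FPKM in every library.

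The other PPAR targets went both ways. Of 19 tested, 6 were higher and 7 lower at 12 h, and 5 were higher and 9 lower at 24 h, with medians of 0.01 and -0.06. Their counts at 12 h were near the shares of all tested genes (29.1% higher and 31% lower). PLIN2, which coats lipid droplets, rose from 146 to 238 and 229 FPKM, while FABP1, the liver fatty acid binding protein, fell from 228 to 120 and 131 FPKM. TXNIP rose by 1.75 and 1.89. FADS2, the desaturase encoded next to FADS1, fell by 1.37 and 1.88, and EHHADH of peroxisomal fatty acid oxidation fell by 0.68 and 0.87. HADHA gave 0.01 at 12 h (limma adjusted p = 0.863) and fell by 0.20 at 24 h.

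Among the other FXR targets and bile acid genes, the setting in which FGF19 normally acts, 4 of 11 tested were higher and 6 lower at 12 h, and 4 were higher and 7 lower at 24 h, with medians of -0.20 and -0.24. NR0B2 (SHP), the repressor that FXR induces, rose from 52.4 ± 1.07 to 88.1 ± 5.52 and 115 ± 5.72 FPKM. CYP7A1, the rate-limiting enzyme of bile acid synthesis that SHP and FGF19 signalling repress, fell from 2.17 ± 0.285 to 1.10 ± 0.0833 and 1.28 ± 0.154 FPKM (-0.91 and -0.72). OSGIN1 rose by 0.96 and 0.41, and the bile acid transporter subunit SLC51A fell by 0.43 and 1.07. FGG fell from 585 to 412 and 428 FPKM, and CYP27A1 gave 0.09 at 12 h (limma adjusted p = 0.085) and fell by 0.15 at 24 h.

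**Figure D5:**
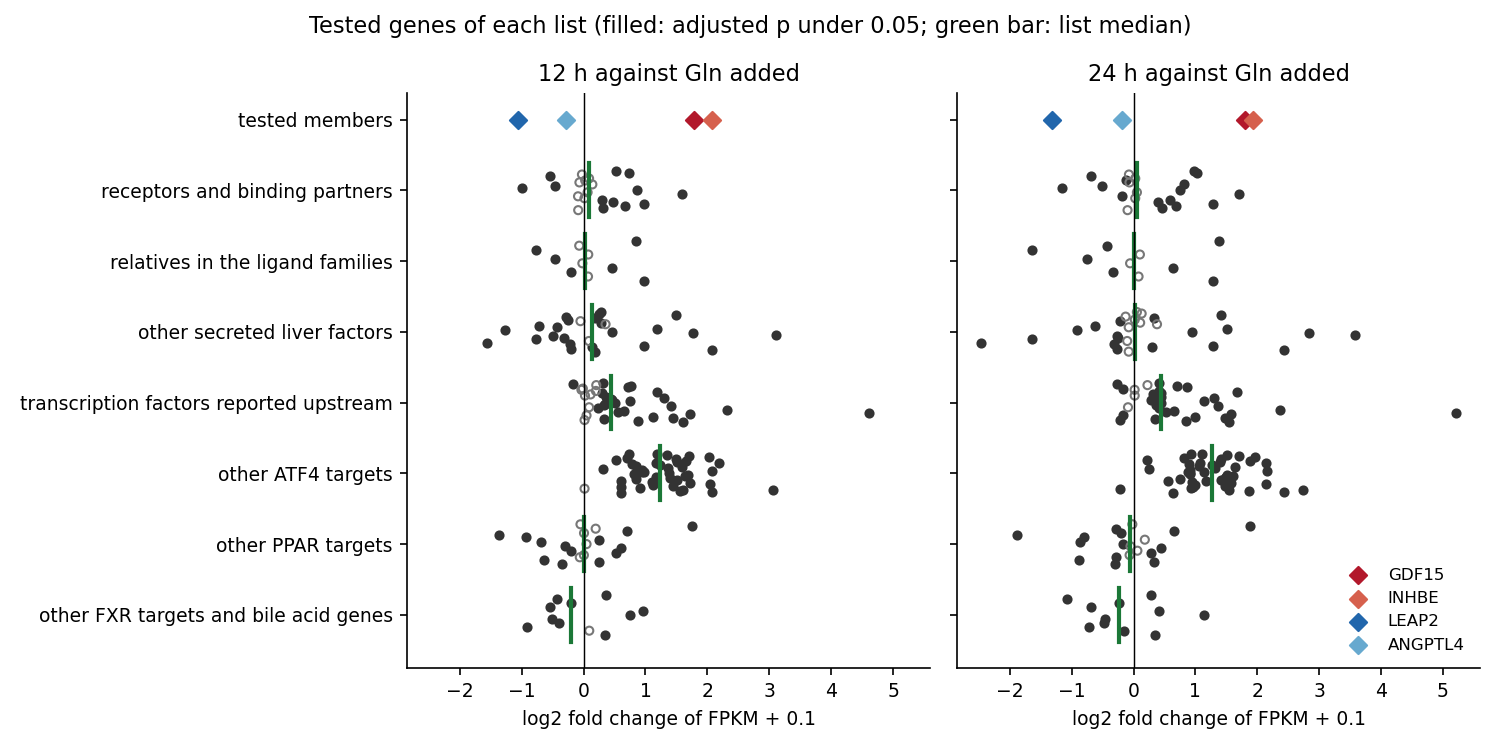
Log2 fold changes of FPKM + 0.1 of the tested members (diamonds) and of the tested genes of each list (circles, filled where the adjusted p was under 0.05, with the list's median as a green bar), at 12 h and 24 h against Gln added. The other ATF4 targets lie to the right of 0, except ATF5 at 24 h (-0.21). Their medians are 1.23 and 1.26, while the medians of the other lists stay within 0.5 of 0.

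The nearest genes of the other members moved in either direction. PGPEP1, upstream of GDF15, rose by 0.47 and 0.59 (limma adjusted p = 4.17e-06 and 5.27e-07), well below GDF15, and LRRC25 on its other side gave 0.54 at 12 h (adjusted p = 0.0127) and -0.21 at 24 h (adjusted p = 0.257). Beside LEAP2, the respiratory chain subunit UQCRQ fell by 0.54 and 0.61, while AFF4, whose end lies 348 bases away on the opposite strand, rose by 0.47 and 0.60. KANK3 beside ANGPTL4 fell by 0.81 and 0.68, and RAB11B-AS1 gave 0.06 and 0.08 (adjusted p = 0.739 and 0.641). LTO1 beside FGF19 rose by 0.69 and 0.54, and FADD, 499273 bases away, gave -0.01 and 0.12 (adjusted p = 0.953 and 0.252).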

How the data were processed

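RNA-seq of HepG2 cells was analysed in 9 libraries, 3 with Gln added and 3 each after 12 h and 24 h of Gln deprivation, grouped by the sample titles. The authors aligned paired reads to GRCh38 with STAR and tested with DESeq2, per the methods, and the submitters' processing notes name HTSeq and R 3.2.0. They deposited FPKM per gene and library, with no further scaling between libraries stated. Every value column could be tied to a sample through its label. The methods name a strand-specific kit and the labels another kit, so the strand setting is uncertain.

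The members, the 7 gene lists, the markers and the motifs were chosen with earlier results of these data known, so counts over them are descriptions. Genes were named by rule: every member, the 3 genes nearest in profile to each tested member, the nearest gene of the table on each side, all markers and, from each list, the 3 most abundant genes and up to 4 with the largest change among those called at both times. INHBB, INHBA, PPARA, ATF4 and ATF5 were named beside that rule, after their values were seen. Some genes of the lists and markers are not reported here by name.

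FPKM are not counts, so limma 3.58.1 in R 4.3.3 (lmFit, eBayes with a trend) was fitted to log2(FPKM + 0.1) for the 11880 genes averaging 0.5 FPKM or more, with the 3 groups in 1 fit, no covariate and Benjamini-Hochberg adjustment over all genes tested. This scale understates changes of low genes. In simulated data 192 of 200 genes changed by 1 on the log2 scale were called (96%) with 11 false calls, on 11880 genes for 12 h against Gln added. Whole fragments were recovered from the steps of the FPKM values, within 0.05 of a whole number for 100% of genes. The search chose lengths that give whole numbers, so that share does not test the recovery. In simulated fragments 5128 of 5404 genes (94.9%) were fully recovered. Of the 3862 with 30 or more fragments over the 9 libraries, 99.8% were. The share was lower among genes with fewer than 30, as FGF21 had, so its fragment numbers are less certain. Exact permutation tests of 3 against 3 were two-sided. Ratios of summed fragments have 95% exact (Clopper-Pearson) intervals, for counting error only. Same-numbered libraries correlated at -0.136 to 0.283 in their deviations from the group means (over 0.1 in 2 of 9 pairs). Differently numbered libraries correlated at -0.467 to 0.296. These values do not settle whether the numbers pair the libraries, and the main fit did not treat them as pairs. Positions come from GENCODE release 44 (GRCh38) and promoters from RefSeq (GRCh38.p14). Alternatives were other pseudocounts, filters and scalings, a fit of 2 groups, no trend, a replicate block, voom on recovered fragments and leaving out each library.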

Additional observations from a re-analysis of the deposited data

Results flagged for a closer look

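INHBE met a rule for a closer look because its response differed between the 2 times by a test of the difference itself. The log2 difference, 24 h minus 12 h, was -0.15 (ratio of the means 0.902, limma adjusted p = 0.0127), with the 3 libraries of 24 h all below the 3 of 12 h. Between these 2 groups 34.4% of all tested genes had no overlap. The call was lost without replicate 2 of 12 h (limma adjusted p = 0.0503) or without replicate 3 of 24 h (adjusted p = 0.0513). Both times stood far above Gln added. Groups of 3 libraries were too small to test for a library that stands apart from the rest.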

How the results depend on the processing

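Of 78 results recomputed under the alternatives, no called fold change of a member or of FUT1 changed sign. Uncalled or untested values did so between 24 h and 12 h. There GDF15 ranged from -0.04 to 0.05, FGF19 from -0.48 to 0.20 and FGF21 from -0.27 to 0.18. GDF15 and INHBE stayed higher and LEAP2 lower than with Gln added under all 19 alternatives each at both times. ANGPTL4 was called lower at 12 h with eBayes without a trend (-0.29, adjusted p = 0.0221), which made 2 members lower, and in no other of its 18 alternatives at either time. With a mean of at least 1 FPKM as the filter ANGPTL4 was not tested. The untested log2 differences of the near-silent genes moved with the pseudocount. FGF19 gave 0.24 with 1 FPKM and 1.77 with 0.01 FPKM at 12 h, and 0.21 and 1.42 at 24 h, and FGF21 gave 0.082 and 1.96 at 12 h, and 0.095 and 1.90 at 24 h. Median-ratio scaling put LEAP2 at -0.27 between 24 h and 12 h (adjusted p = 0.0487), so that 2 members were lower. With 1 library left out INHBE lay between -0.17 and -0.14 and LEAP2 between -0.34 and -0.16 at 24 h against 12 h, and 0 to 2 members were called lower.

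The fit with a replicate block gave the same fold changes (GDF15 1.79, INHBE 2.08 and LEAP2 -1.06 at 12 h) and changed no call of a member. Of the list counts given against Gln added, those that moved by over 1.5 times were the lower calls at 24 h without a filter, when more genes were tested: from 4 to 7 in the relatives and from 7 to 11 in the FXR and bile acid genes. At 24 fragments over 9 libraries, changes of FGF21 were not resolved at this depth.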
